A study of Sus scrofa with 14 samples.

Results

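Immediate early genes and heat shock genes were followed as a set of 10 genes among the 30071 gene identifiers of a pig (Sus scrofa) mammary gland series. The set was a list of names whose rule uses no measured value, although it was drawn up with earlier results of these data known. It holds FOS, FOSB, JUN, JUNB and ATF3, which code for transcription factors of the AP-1 type, EGR1, a zinc finger transcription factor, IER2, a small nuclear protein, DUSP1, a phosphatase that switches off MAP kinases, and the chaperones HSP70.2 and HSPH1. The symbol was in the files for 7 of them, while JUN, IER2 and HSP70.2 were found by gene identifier through the reference table. All 10 had a row in the gland and milk libraries, and 8 had one in the tissue sections, where JUN and IER2 were not analysed.

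Mammary glands of multiparous sows were taken at day 90 of gestation (G90), day 0 and day 20 of lactation (L0 and L20), and days 2 and 7 after natural involution (PI2 and PI7), with 2 glands at each stage. The tissue was snap-frozen, and nuclei were isolated from it for single-nucleus RNA sequencing (snRNA-seq). Whole cells of 1 colostrum sample (L0) and 1 mature milk sample (L20) were sequenced fresh (scRNA-seq), and 1 frozen section of G90 and 1 of PI2 were measured by Visium spots. No group carried a treatment, a transgene or an inbred strain in the labels, so the groups differ by stage, and nothing in the labels says that milk and gland came from the same sow.

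Immediate early genes are transcribed within minutes of a growth factor, stress or calcium signal, because the factors that bind their promoters, such as serum response factor at CArG boxes and CREB at cAMP response elements, are already in the cell. FOS proteins pair with JUN proteins to form AP-1, which switches on later genes, and DUSP1 ends the signal. Heat shock genes are induced through HSF1 when proteins unfold, and HSP70 works with HSPH1, which exchanges its nucleotide, to refold them. Many of them are also known to respond to the handling of tissue, and in the mammary gland AP-1 is known to take part in involution.

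On Sscrofa11.1, RefSeq places FOS at chr7:98449508-98451971, FOSB at chr6:51836780-51844531 and JUN, a gene with 1 exon, at chr6:153686425-153687635. JUNB lies at chr2:66214086-66219435, IER2 at chr2:65909638-65912491 and EGR1 at chr2:140440829-140445302. ATF3 lies at chr9:130772259-130829678, DUSP1 at chr16:51457924-51461095, HSP70.2 at chr7:23925929-23927854 and HSPH1 at chr11:7733874-7759528. HSP70.2 has a coding length of 1926 bases in 1 exon and has near-identical copies in the genome, so its count is uncertain as to the copy.

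The promoters below are shown because they hold the only CArG box and the only TGACGTCA among the windows of the 10 members, which run from 250 bases before to 50 bases after the RefSeq start. Both are the 250 bases before the start, 5′ to 3′ on the strand of the gene, taken from the RefSeq genome of Sscrofa11.1, with the match in capitals. The IER2 window spans chr2:65912442-65912741 on the minus strand, with its CArG box at bases -209 to -200 from the start, and the DUSP1 window spans chr16:51457674-51457973 on the plus strand, with TGACGTCA at -52 to -45.
IER2: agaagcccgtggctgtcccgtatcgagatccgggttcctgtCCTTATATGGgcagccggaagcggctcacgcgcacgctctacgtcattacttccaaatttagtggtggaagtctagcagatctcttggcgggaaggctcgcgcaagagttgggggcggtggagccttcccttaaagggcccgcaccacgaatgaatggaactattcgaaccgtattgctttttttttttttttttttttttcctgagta
DUSP1: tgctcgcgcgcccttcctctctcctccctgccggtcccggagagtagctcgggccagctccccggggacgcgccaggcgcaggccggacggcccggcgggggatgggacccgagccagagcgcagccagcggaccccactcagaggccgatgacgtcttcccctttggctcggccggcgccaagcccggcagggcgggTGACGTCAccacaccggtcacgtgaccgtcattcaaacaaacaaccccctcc

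Of 19559 promoter windows of the same length, 1.53% held a CArG box and 2.25% held TGACGTCA on either strand. The other motifs searched were TGANTCA (6.07% of windows), GAANNTTC (6.33%), TTCNNGAA (6.79%), the 3-unit heat shock element (0.378%), which joins the preceding pair of motifs and overlaps both, GCGTGGGCG (0.931%) and TATAAA (6.96%). Among the members, TATAAA was in the windows of FOS, FOSB and HSP70.2, and TTCNNGAA in that of HSPH1. These are matches of letters at annotated starts, and the start of FOS and of HSP70.2 is annotated at the first coding base. In JUNB and IER2, each with 1 exon, coding begins 3798 and 1206 bases after the annotated start. A motif outside a window would not have been found, so a window without a match does not show that the gene lacks the motif.

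After filtering, 126833 of 128233 gland barcodes were kept, with 18700704 to 53161349 UMIs per gland and a median of 1382 to 2496 UMIs per nucleus. The milk libraries kept 17571 and 14514 barcodes. Of 152393 distinct barcode sequences, 6360 (4.17%) occurred in 2 or more libraries, and tests were repeated without them. L20 replicate 2 stood apart, with 8.51% of its nuclei luminal-like against 25.4% to 76.6% in the other 9 glands. Levels are given as CPM, the UMIs of a gene per 1000000 UMIs of the library or class, and were not compared between genes.

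FOS and FOSB differed widely between glands, and the glands of L0 were the lowest. The glands of G90 held FOS at 489 and 44.8 CPM, those of L0 at 19.4 and 16.0, those of L20 at 901 and 292, those of PI2 at 335 and 134, and those of PI7 at 663 and 553. Both L0 glands were below all 8 others, but glands of 1 stage differed by 10.9-fold at G90 and by 1.21-fold at L0. FOSB was at 71.1 and 2.77 CPM in G90, while L0 had 1.64 and 0.958, L20 had 15.1 and 43.3, PI2 had 26.0 and 2.30, and PI7 had 48.6 and 62.6. Its L0 glands were again the lowest of the 10, and its glands differed by 25.7-fold within G90 and 11.3-fold within PI2. How many of all genes were lowest in both L0 glands is not given here, so this order is not shown to be particular to them.

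JUN, the partner of the FOS proteins, did not follow the stages in this way. Its lowest gland was L20 replicate 1 at 17.7 CPM and its highest was PI7 replicate 1 at 212 CPM, and the L20 glands differed by 9.04-fold. JUNB reached 0.282 to 4.01 CPM (11 to 75 UMIs per gland) and IER2 0.0188 to 1.07 CPM (1 to 30 UMIs per gland), so single UMIs weigh on the values of IER2. ATF3, a factor induced by stress signals, was at 83.7 and 19.1 CPM in G90, while L0 had 35.7 and 41.4, L20 had 86 and 42.2, PI2 had 131 and 79.9, and PI7 had 62.7 and 238. Every neighbouring pair of stages but L0 and L20 overlapped for ATF3, and L20 lay above L0 by less than 1 CPM at the closest glands.

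EGR1 was at 104 and 13.1 CPM in G90, while L0 had 23.1 and 18, L20 had 155 and 87.4, PI2 had 65.6 and 85.7, and PI7 had 225 and 88.3. Both L0 glands were below all glands of L20, PI2 and PI7, while the lowest gland of all was G90 replicate 2. A share of all genes with this separation is not given here. DUSP1 was at 199.8 and 61.6 CPM in G90, while L0 had 86.4 and 109, L20 had 501 and 205, PI2 had 473 and 384, and PI7 had 358 and 513, with the same separation of L0 from the later stages. The chaperone HSP70.2 had another order of glands, with 77.1 CPM in G90 replicate 2 and 71.5 in L0 replicate 2 as the highest, and 16.1 and 8.06 in their stage mates. HSPH1 lay between 11.6 and 84.5 CPM, with the L0 glands at 11.6 and 18.7 and PI2 at 17.4 and 84.5.

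**Figure D1:**
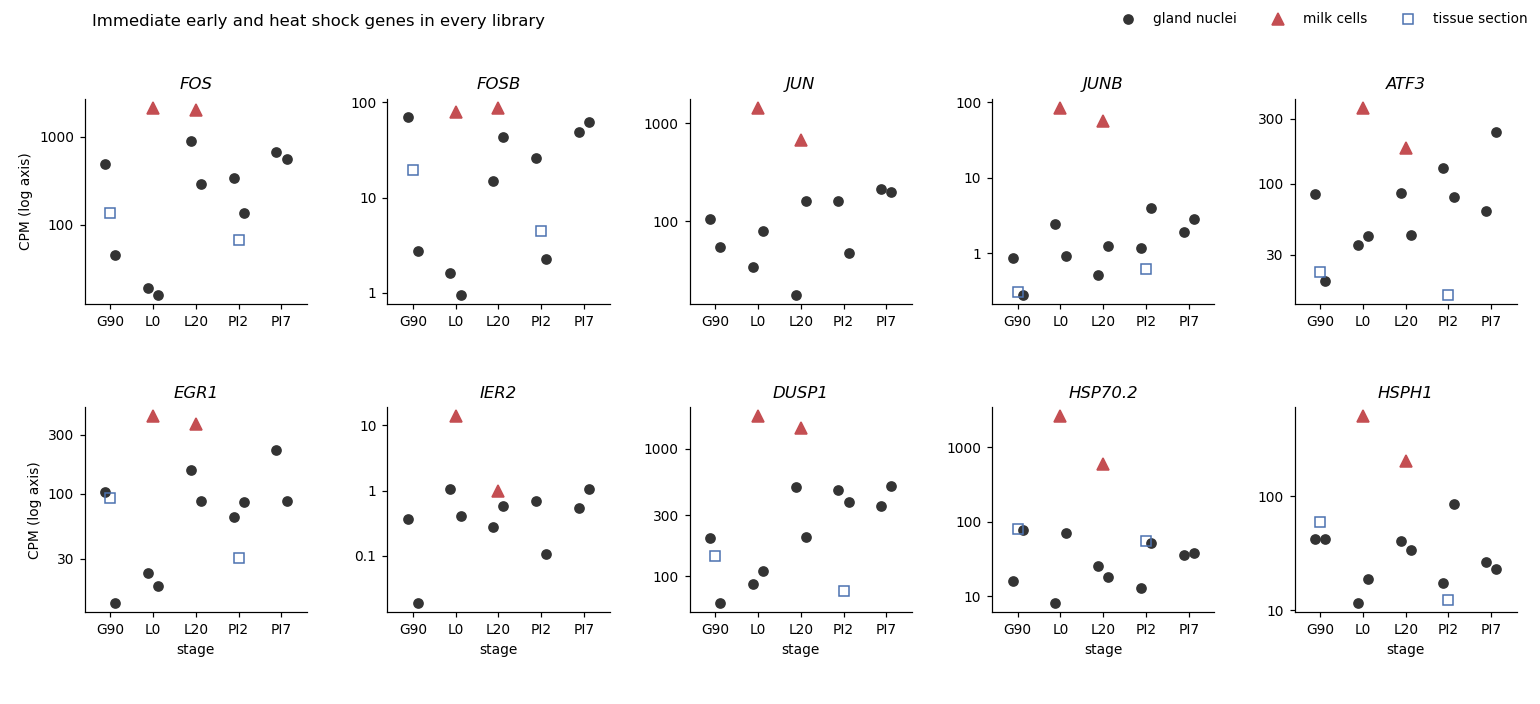
Level (CPM, log axis) of each member by stage, with black circles for gland nuclei (2 glands per stage), red triangles for milk cells and open blue squares for tissue sections. FOS and FOSB are lowest in the L0 glands, and both milk libraries lie above all 10 glands for 8 genes, all but ATF3 and IER2. Shares of all genes with these orders are not given.

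None of these stage differences passed the test. In edgeR's quasi-likelihood fit over the 10 glands, 0 of 10 members were called (adjusted p under 0.05 and absolute log2 fold change over 1) in L0 against G90, L20 against L0, PI2 against L20, PI7 against PI2, and lactation against the other stages. Of all 22695 genes tested, 0% were called in each of these comparisons. The log2 fold change of FOS was -3.29 (SE 0.95, adjusted p = 0.389) in L0 against G90 and 4.73 (SE 1.02, adjusted p = 0.175) in L20 against L0, with 2 glands per stage. For FOSB the values were -4.17 (SE 1.3, adjusted p = 0.435) and 3.84 (SE 1.29, adjusted p = 0.253). Without G90 replicate 1 the values in L0 against G90 were -1.23 for FOS and -0.97 for FOSB. With 1 gland left out in turn, FOS ran from -4.11 to -1.23 and FOSB from -5.09 to -0.97 in this comparison. In L20 against L0, FOS ran from 3.32 to 5.46 and FOSB from 3.32 to 4.33.

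At an unadjusted p under 0.05 there were 3, 4, 0, 0 and 2 members in these 5 comparisons, and DESeq2 called 2, 2, 0, 0 and 0, namely FOS and FOSB, beside 397, 1157, 25, 19 and 118 of all genes. Among all genes, 1652, 2912, 817, 464 and 1247 had an unadjusted p under 0.05 in edgeR. Scaling by total UMIs in place of TMM moved the median log2 fold change of all genes from -0.17 to -0.58 in L0 against G90 and from 0.24 to 0.77 in L20 against L0, and the directions of FOS and FOSB held. In the sum of a whole gland, fewer cells of a type and less RNA per cell cannot be told apart.

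The same comparisons within luminal-like nuclei, the epithelial nuclei that line ducts and alveoli, held the class fixed. A nucleus was called luminal-like where at least 2 luminal markers, such as EPCAM, KRT8 or ELF5, had a UMI and no other class had as many, and there were 63645 of them. FOS in these nuclei was at 329 and 27.8 CPM in G90, while L0 had 16.3 and 12.8, L20 had 961 and 504, PI2 had 365 and 135, and PI7 had 1049 and 659. Both L0 glands were again below every other gland, and G90 and PI2 overlapped. As in the whole gland, no share of all genes with this order is given.

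Here too 0 of 10 members were called in the 5 comparisons, with 0.00514%, 0%, 0%, 0% and 0.0103% of 19459 genes called. In L20 against L0 the log2 fold change was 5.31 for FOS (SE 1.0, adjusted p = 0.12), 5.22 for FOSB (SE 1.36, adjusted p = 0.169), 2.44 for EGR1 (SE 0.76, adjusted p = 0.211) and 1.73 for DUSP1 (SE 0.55, adjusted p = 0.216). In L0 against G90 it was -3.08 for FOS (SE 0.90, adjusted p = 0.196), and -0.80 without G90 replicate 1. With 1 gland left out in turn DUSP1 ran from 0.75 to 2.29 in L20 against L0. FOS ran from 4.41 to 5.85, FOSB from 4.26 to 5.84 and EGR1 from 1.87 to 2.82 there. At an unadjusted p under 0.05 there were 4, 4, 0, 0 and 2 members, and DESeq2 called 2, 3, 0, 0 and 0, namely FOS and FOSB in both and EGR1 in the second, beside 860, 1022, 8, 43 and 375 of all genes. Among all genes, 2309, 2658, 650, 550 and 1937 had an unadjusted p under 0.05 in edgeR. Leaving out either G90 gland brought FOS to an adjusted p of 0.0477 or 0.0458 in L20 against L0, which is past the threshold.

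The 3 glands with the highest share of casein UMIs (0.774% to 1.06%, both L0 glands and G90 replicate 2) were also the 3 with the most luminal-like nuclei (70.6% to 76.6%) and the lowest FOS (16.0 to 44.8 CPM). In the other 7 glands casein made up 0.0106% to 0.121% of UMIs and FOS stood at 134 to 901 CPM. Both L20 glands, although labelled as lactating, were among these 7, with casein at 0.0721% and 0.0106%, the latter the lowest of the 10 glands. L20 replicate 2 also held 499 adipocyte-like nuclei, against 7 to 36 in each other gland. The part of these differences between libraries in the level of FOS was not tested.

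The wider pathway was read from 5 lists with 70 genes in all, of which 60 could be tested in the whole gland. They cover AP-1 relatives, zinc finger and nuclear receptor genes, feedback genes, upstream factors and chaperones. In the whole gland and in luminal-like nuclei 0 of 60 were called in each of the 5 comparisons. The median log2 fold change over the lists in the whole gland was -0.23, 0.64, 0.26, -0.18 and -0.23, beside -0.17, 0.24, 0.03, 0.02 and -0.03 over all genes. The zinc finger and nuclear receptor list, which holds EGR2, EGR3, the NR4A and the KLF genes, had medians of -1.46 from G90 to L0 and 1.85 from L0 to L20 in the whole gland.

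Between classes of nuclei in the same glands the members differed, with several called in 4 classes and at most 1 in the other 4. Each of 8 classes was compared with the mean of the others, with the sow as a block, and 8 members were tested, as JUNB and IER2 did not pass the filter on low counts. Myoepithelial-like nuclei, from the contractile cells around the alveoli, had 4 members called higher, ATF3, EGR1, FOS and FOSB, where 12.5% of 12458 genes were called and 7.06% were called higher. Endothelial-like nuclei had 3 called higher, DUSP1, HSP70.2 and JUN, where 11.9% of genes were called, 9.13% higher and 2.78% lower. T and NK-like nuclei had 7 called lower, all but HSPH1, where 17.3% of genes were called and 10.2% were called lower.

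In myoepithelial-like nuclei FOS had a median of 657 CPM over 10 glands, with 16.8 as the lowest and 2553 as the highest, beside 347 (12.8 to 1049) in luminal-like nuclei. Its difference from the mean of the other classes was 1.40 on the log2 scale (SE 0.23, adjusted p = 7.07e-07). The differences were 2.34 for FOSB (SE 0.31, adjusted p = 2.54e-09), 2.16 for ATF3 (SE 0.25, adjusted p = 1.01e-11) and 1.91 for EGR1 (SE 0.24, adjusted p = 3.54e-10). The G90 glands were the farthest apart from luminal-like nuclei, since ATF3 was 19.5 and 5.91 times as high in myoepithelial-like as in luminal-like nuclei there and at most 1.99 times as high in the other 8 glands. Against luminal-like nuclei alone, ATF3 was higher in only 4 of 10 glands (median ratio 0.919). FOS and EGR1 were higher in 7 (lowest ratio 0.672 and 0.646) and FOSB in 6 (lowest ratio 0). HSPH1 was higher in myoepithelial-like than in luminal-like nuclei in 10 of 10 glands (1.06 to 6.64 times), but its difference from the other classes was 0.71 (SE 0.19), below the fold required.

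Endothelial-like nuclei, from the lining of blood and lymph vessels, were set apart by DUSP1. It stood at 569, 311, 562, 682, 794, 432, 1553, 549, 539 and 1392 CPM in the glands from G90 to PI7, and at 136, 52.9, 74.0, 102, 498, 244, 324, 396, 439 and 413 CPM in luminal-like nuclei of the same glands. It was higher in endothelial-like nuclei in 10 of 10 glands, and differed from the mean of the other classes by 2.03 (SE 0.16, adjusted p = 1.09e-18).

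HSP70.2 stood at 56.4, 153, 50.5, 369, 90.0, 37.0, 39.0, 52.2, 69.1 and 77.6 CPM in endothelial-like nuclei, against 11.06, 75.1, 6.17, 67.5, 20.6, 7.73, 9.08, 52.8, 28.7 and 25.9 in luminal-like nuclei. It was higher in 9 of 10 glands, with PI2 replicate 2 as the exception, and differed from the other classes by 1.65 (SE 0.20, adjusted p = 7.14e-11). JUN was higher in endothelial-like nuclei by 1.22 (SE 0.20, adjusted p = 2.95e-07), and higher than in luminal-like nuclei in 6 of 10 glands. Without L0 replicate 1 the JUN difference was 0.93, and without the sow block it was 0.98, both below the fold required.

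The median of FOS in T and NK-like nuclei was 114 CPM, from 9.18, which rests on 1 UMI, to 344, which rests on 20 nuclei. T and NK-like nuclei were low in FOS, at -1.58 from the other classes (SE 0.32, adjusted p = 3.75e-05). They were low in EGR1 at -2.02 (SE 0.37), DUSP1 at -1.98 (SE 0.25), ATF3 at -1.46 (SE 0.37) and JUN at -1.32 (SE 0.27), with adjusted p between 1.63e-10 and 0.000818. FOSB (-1.3, adjusted p = 0.0274) and HSP70.2 (-1.01, adjusted p = 0.00885) were lower as well, and these calls were lost without G90 replicate 1 or PI7 replicate 1 for FOSB (-1.18 and -1.01), and without either G90 gland, L0 replicate 1 or L20 replicate 1 for HSP70.2 (-0.99 to -0.85), which also lost its call without shared barcodes (-0.94). The FOSB call was also lost with DESeq2, without the sow block, with at least 3 markers and without nuclei with markers of a second class, and the HSP70.2 call with total UMIs, without the sow block, with stricter barcodes and with at least 3 markers. B and plasma-like nuclei had FOS, EGR1, JUN and ATF3 called lower, at -1.19, -1.99, -1.43 and -1.37, where 10.9% of genes were called, 6.12% higher and 4.81% lower. The ATF3 call there was lost in 7 of the 10 fits that left out 1 gland and without shared barcodes, and with total UMIs or without the sow block both ATF3 and FOS lost their call. ATF3 also lost it with at least 50 nuclei, stricter barcodes or at least 3 markers, and without nuclei with markers of a second class.

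The other classes had at most 1 member called. EGR1 was higher in fibroblast-like nuclei by 1.43 (SE 0.23, adjusted p = 4.47e-07), where 12.5% of genes were called, 9.43% higher and 3.03% lower. ATF3 was higher in luminal-like nuclei by 1.24 (SE 0.22, adjusted p = 1.74e-06), where 24.3% were called and 7.67% were called higher. EGR1 was lower in macrophage-like nuclei by -1.04 (SE 0.31, adjusted p = 0.00397), where 19.6% were called, 9.5% higher and 10.1% lower, and this call was lost without either G90 gland and without PI2 replicate 1. In mural-like nuclei, from the cells around vessels, 0 of 8 members were called in edgeR and in DESeq2, with 1 member at an unadjusted p under 0.05 in DESeq2, and 8.95% of genes were called in edgeR, 6.3% higher and 2.65% lower.

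**Figure D2:**
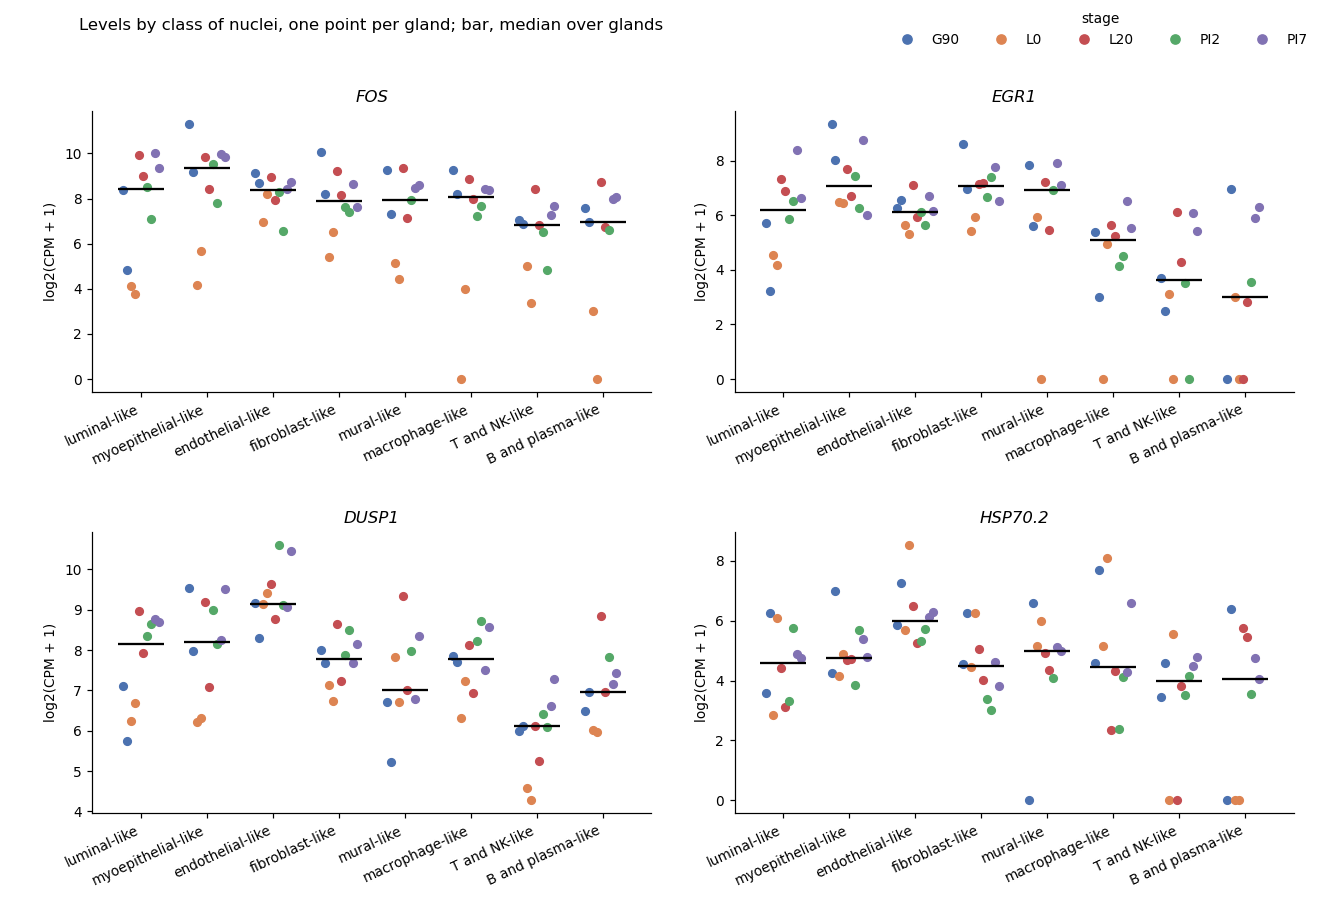
Levels of FOS, EGR1, DUSP1 and HSP70.2 by class of nuclei, as log2(CPM + 1), with 1 point per gland coloured by stage and a bar at the median over glands. DUSP1 and HSP70.2 have their highest median in endothelial-like nuclei and FOS and EGR1 in myoepithelial-like nuclei, and points at 0 are classes of a gland with 0 UMIs of the gene.

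The pathway lists had 15 of 54 tested genes called higher and 0 called lower in endothelial-like nuclei, with a median of 0.36 beside -0.03 over all genes, of which 9.13% were higher. The 6 with the largest difference were KLF2 (3.36), KLF4 (3.26), IER3 (2.50), ELK3 (2.13), RHOB (1.96) and HSPB1 (1.86). KLF2 and KLF4 are transcription factors known to be induced by blood flow, and HSPB1 is a small chaperone. In T and NK-like nuclei, with 10.2% of all genes lower, 11 were lower and 1 was higher, DUSP2 (4.17), a phosphatase known from activated lymphocytes. Myoepithelial-like nuclei had 4 higher, CRYAB (1.99), TRIB1 (1.91), HSP90AA1 (1.53) and IER3 (1.25), and 3 lower, beside 7.06% of all genes higher. Fibroblast-like nuclei had 4 higher, EGR2 (3.18), DUSP6 (1.52), KLF4 (1.49) and NR4A1 (1.21), and 1 lower, beside 9.43% of all genes higher. With 54 tested, 4 is close to these shares of all genes. The counts of higher and lower genes were 2 and 5 in luminal-like, 3 and 2 in macrophage-like, 1 and 0 in mural-like and 1 and 5 in B and plasma-like nuclei, where 24.3%, 19.6%, 8.95% and 10.9% of all genes were called in either direction.

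The class gate and the RNA of the classes differed in ways that may bear on these values and were not tested. The median share of mitochondrial UMIs was 0.398% in endothelial-like, 0.203% in myoepithelial-like, 0.321% in T and NK-like and 0.112% in luminal-like nuclei. Median UMIs per nucleus were 1644, 1691, 1067 and 2455 in the same order. At least 2 markers of another class were present in 4026 of 11535 endothelial-like and 1137 of 2693 myoepithelial-like nuclei.

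The classes did not vary alike over the glands, and the members with UMIs in both classes of every gland ranged more widely in luminal-like than in endothelial-like nuclei. Whether most other genes do the same is not given here. FOSB, JUNB and IER2 had 0 UMIs in endothelial-like nuclei of at least 1 gland, so no range is given for them. FOS ranged 81.8-fold over the 10 glands in luminal-like nuclei and 6.01-fold in endothelial-like nuclei, where it stood at 553, 414, 123, 291, 493, 247, 316, 92.1, 338 and 421 CPM. EGR1 ranged 39.8-fold in luminal-like and 3.47-fold in endothelial-like nuclei, ATF3 16.5-fold and 4.10-fold, JUN 17.4-fold and 6.21-fold, and DUSP1 9.43-fold and 4.99-fold. For the chaperones the ranges were 12.2-fold and 9.96-fold for HSP70.2 and 8.41-fold and 4.22-fold for HSPH1.

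For FOS, the ratio of endothelial-like to luminal-like nuclei of the same gland lay above 1 at some stages and below 1 at others. It was 1.68 and 14.9 in the glands of G90, 7.56 and 22.7 in L0, 0.513 and 0.489 in L20, 0.867 and 0.684 in PI2, and 0.322 and 0.638 in PI7. FOS was thus higher in endothelial-like nuclei in the 4 glands of G90 and L0 and lower in the 6 later ones. For ATF3 the ratio was 1.35 and 1.07 at L0 against 0.263 and 0.195 at L20. No ratio is given for FOSB, which had 16 and 1 UMIs in the endothelial-like nuclei of L0 and 4 and 430 in those of L20.

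The ratio was taken within sows and its change compared between the sows of different stages, 2 at each, with a test chosen after these values were seen. Of 9 members tested, 3 had a called change from L0 to L20, where 1.56% of 19220 genes were called and 1.42% were called lower. FOS changed by -4.57 (SE 0.66, adjusted p = 0.000677), FOSB by -4.62 (SE 0.89, adjusted p = 0.00655) and ATF3 by -2.37 (SE 0.47, adjusted p = 0.00874) on the log2 scale, beside a median of 0.14 over all genes. The FOSB value rests on few UMIs at L0, with 16 and 1 in endothelial-like and 25 and 8 in luminal-like nuclei. DUSP1 (-1.98, adjusted p = 0.0607), JUN (-1.68, adjusted p = 0.0985) and EGR1 (-1.68, adjusted p = 0.398) did not pass. JUN ran from -2.31 to -0.56 with 1 gland left out in turn. Without the filter on low counts (-1.78), with stricter barcodes (-1.86) and with at least 3 markers (-2.07) DUSP1 passed. DUSP1 did pass in the 8 fits that left out a gland of G90, L20, PI2 or PI7 (-2.13 to -1.76), and JUN and EGR1 passed in some of them.

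The FOS call held in each of the 10 fits that left out 1 gland, at -5.0 to -3.81. Without L0 replicate 1, FOSB (-3.29, adjusted p = 0.804) and ATF3 (-1.77, adjusted p = 0.43) were no longer called, and ATF3 was also lost when nuclei with markers of a second class were left out (-1.75, adjusted p = 0.218). From G90 to L0, L20 to PI2 and PI2 to PI7, 0 of 9 members were called in edgeR and in DESeq2, where 0.864%, 0% and 0% of genes were called. FOSB had an unadjusted p of 0.0249 in the first of these, ATF3 one of 0.00619 in the second, and no member one under 0.05 in the third. In the L0 glands the median mitochondrial share of endothelial-like nuclei was 1.68% and 1.70%, in the L20 glands 2.02% and 0.612%, and its part in the ratio was not tested.

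Of the pathway lists, 6 of 59 genes had a called change in this ratio from L0 to L20, all lower. These were KLF4 (-4.41), IER3 (-3.82), KLF2 (-2.69), NR4A1 (-2.57), KLF10 (-2.37) and RHOB (-2.29), with a median of -0.54 over the lists, beside 1.42% of all genes lower. In the chaperone list 0 of 18 were called from L0 to L20, with a median of -0.27. From G90 to L0 the ratio was called higher for 1 gene of the lists, the chaperone HSPB1 (2.48, adjusted p = 0.00425), and lower for 1, ZFP36L2 (-1.93, adjusted p = 0.00937), beside 0.453% of all genes higher and 0.411% lower.

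**Figure D3:**
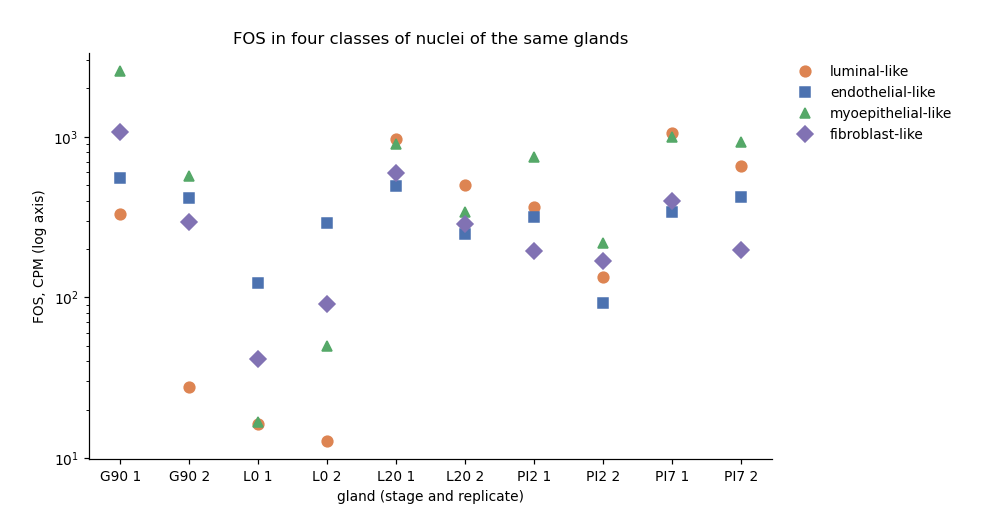
FOS in 4 classes of nuclei of the 10 glands (CPM, log axis), 1 point per class and gland. Luminal-like nuclei (orange circles) range from 12.8 CPM at L0 to 1049 at PI7, and endothelial-like nuclei (blue squares) lie between 92.1 and 553.

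Within glands, most members were found in a larger share of the nuclei that held another member than of those that held none. Nuclei with at least 1000 UMIs (7261 to 16152 per gland) were thinned to 1000 UMIs, and the share with a UMI of a member was compared between nuclei with and without a UMI of any other member. FOS was in 24.0% of nuclei with another member and in 10.8% of those with none, a difference of 13.2 percentage points (SD 10.0, n = 10 glands). The difference was above 0 in 10 of 10 glands, from 2.17 points in L0 replicate 2 to 34.8 in G90 replicate 1 (exact two-sided sign-flip permutation test, p = 0.00195, the smallest that 10 glands allow, adjusted p = 0.00326 over 10 members).

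DUSP1 (10.7 points), EGR1 (6.57), JUN (4.51), ATF3 (4.19) and FOSB (3.05) were also above 0 in 10 of 10 glands. JUNB differed by 0.125 points (9 of 10 glands, adjusted p = 0.0195 by the exact permutation test). The chaperones differed by less than 1 point, HSP70.2 by 0.977 (9 of 10 glands, adjusted p = 0.00558 by the exact permutation test) and HSPH1 by 0.661 (8 of 10 glands, adjusted p = 0.0171). Without barcodes found in 2 or more libraries HSPH1 lost its call (0.416 points, adjusted p = 0.0825 by the exact permutation test). IER2 did not pass (0.0154 points, adjusted p = 0.27 by the exact permutation test). Before thinning, FOS had a UMI in 1.71% to 50.7% of all kept nuclei, against 1.12% to 41.9% of the thinned nuclei. No class that lacks these genes was defined, so the background of free RNA in these shares was not measured, and the same difference was not computed for other genes.

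Within luminal-like nuclei alone, FOS differed by 14.8 points (SD 11, n = 10 glands, 10 of 10 above 0). It was smaller there than over all nuclei in 3 glands, G90 replicate 1 (30.0 points), G90 replicate 2 (2.45 points) and L0 replicate 2 (1.57 points). HSPH1 (0.539 points, adjusted p = 0.0684 by the exact permutation test) and JUNB (0.165 points, adjusted p = 0.113 by the exact permutation test) no longer passed there.

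**Figure D4:**
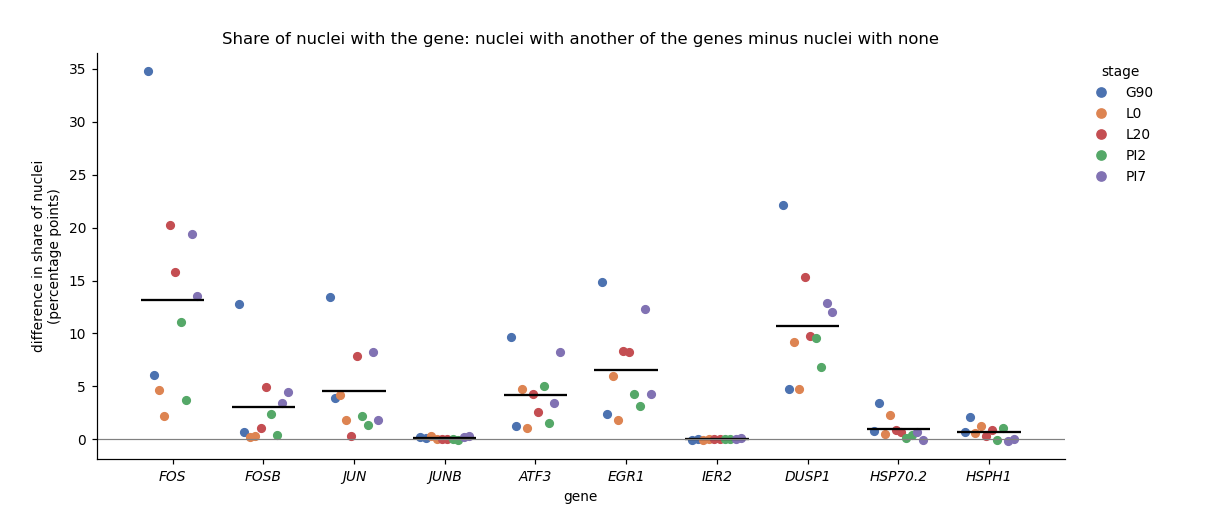
Share of nuclei with a gene among nuclei with any other member minus the share among nuclei with none, in percentage points after thinning to 1000 UMIs, with 1 point per gland coloured by stage and a bar at the mean of 10 glands. FOS (mean 13.2) and DUSP1 (10.7) lie above 0 in every gland, and JUNB, IER2, HSP70.2 and HSPH1 lie near 0. Genes found in few nuclei, such as JUNB and IER2, can differ by few points only.

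Over the 10 whole glands the levels of some members moved together, among 45 pairs compared on the log2(CPM + 1) scale. FOS and EGR1 had Pearson's r = 0.91 and Spearman's rho = 0.90 (permutation test, adjusted p = 0.0218 and 0.0160), and r = 0.89 without the 2 glands farthest from the median of FOS. ATF3 and DUSP1 had r = 0.87 and rho = 0.92 (permutation test, adjusted p = 0.0218 and 0.0160), and r = 0.83 without the 2 farthest glands. FOS and FOSB had r = 0.87 (adjusted p = 0.0316) but rho = 0.75 (adjusted p = 0.168) by the permutation test. HSP70.2 and HSPH1 had r = 0.45 (permutation test, adjusted p = 0.593). No batch is given in the labels, so no value within batches can be given. The glands span all stages, so differences between stages and in cell makeup enter these values. Neither a value within stages nor a background of other gene pairs is given.

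The genes most like a member over the 10 glands were taken from 11167 genes with a mean of at least 5 CPM, by Pearson's r of log2 levels, as a description. The leading gene was GPR39 for FOS (0.989), SEMA4F for FOSB (0.979), RP9 for JUN (0.951), MPPE1 for ATF3 (0.930) and CD63 for EGR1 (0.977). RHOB, a small GTPase known as an immediate early gene, was next for FOS (0.973). For the chaperones it was DDX24 for HSP70.2 (0.768) and UBAP2 for HSPH1 (0.977), and for JUNB it was SLC15A2 (0.861).

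The tissue sections place the members without isolation of nuclei, with 1 section per stage and no replicates. FOS stood at 135 CPM in the G90 section and 67.1 in the PI2 section, EGR1 at 92.9 and 30.3, DUSP1 at 145 and 76.3, and HSP70.2 at 79.7 and 55.8. Every member measured but JUNB was higher in the G90 section, by 1.43-fold for HSP70.2 to 4.79-fold for HSPH1, while JUNB had 13 and 11 UMIs. How many of all genes were higher in that section is not given, so a general shift between the sections is not set apart. In gland nuclei the mean was higher in G90 for FOS, FOSB and HSP70.2, but higher in PI2 for DUSP1, ATF3, EGR1 and HSPH1. DUSP1 had both PI2 glands (473 and 384 CPM) above both G90 glands (199.8 and 61.6 CPM).

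In the tenth of spots with the most luminal marker UMIs (472 and 224 spots), FOS stood at 391 CPM in G90 and 361 CPM in PI2, 2.90 and 5.38 times the level of all spots. In the tenth with the most endothelial markers FOS was 3.25 times the level of all spots in G90 and 0.715 times that in PI2, and for fibroblast markers 2.84 and 0.463 times. HSP70.2 differed less, at 1.29 and 1.45 times the level of all spots in luminal marker spots. A spot can hold several cells, and the fibroblast marker spots of G90 had a median of 1876.5 UMIs against 8062 over all spots.

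Milk cells had far more of these UMIs than gland nuclei. FOS stood at 2114 CPM in the L0 milk and 1983 in the L20 milk, above all 10 glands. HSP70.2 stood at 2599 and 602 CPM in milk, against 8.06 to 77.1 in glands, and DUSP1 at 1800.4 and 1454 against 61.6 to 513. JUN stood at 1438 and 683 CPM, EGR1 at 422 and 369, HSPH1 at 498 and 203, and JUNB at 84.4 and 56.6, all above the highest gland for these genes. How many of all genes had both milk libraries above every gland is not given here.

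ATF3 stood at 360.4 and 184 CPM, so that the L20 milk lay below PI7 replicate 2 at 238, and FOSB stood at 80.3 and 87.7. IER2 stood at 13.8 and 0.978 CPM, the latter inside the range of the glands. Beside the mean of the glands of the same stage, the L0 milk was 119-fold higher for FOS, 65.4-fold for HSP70.2, 32.9-fold for HSPH1 and 9.35-fold for ATF3. The L20 milk was 3.33-fold higher for FOS, 27.4-fold for HSP70.2, 5.49-fold for HSPH1 and 2.87-fold for ATF3.

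In edgeR, with the 2 milk libraries against the 4 glands of L0 and L20, 10 of 10 members were called higher over all barcodes, where 32.2% of 21241 genes were called and 20.9% were called higher. The log2 fold changes ran from 4.33 for ATF3 (SE 0.55, adjusted p = 0.000338) to 7.81 for JUNB (SE 0.57, adjusted p = 5.75e-05), with 6.93 for FOS (SE 1.3, adjusted p = 0.00293) and 7.33 for HSP70.2 (SE 0.94, adjusted p = 0.000334). The size of these changes rests on the scaling. With total UMIs in place of TMM they ran from 2.46 to 5.81, and the median over all genes moved from -0.47 to -2.39. The called genes were 65.0% higher with TMM and 14.4% higher with total UMIs.

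The members were also higher within cell classes found in both sources. Within luminal-like barcodes 10 of 10 were called higher (3.99 to 7.11), where 42.2% of 17668 genes were called and 21.9% higher. Of these, IER2 held 26 and 7 UMIs in the luminal-like nuclei of the L0 glands and 3 and 0 in those of L20. The luminal-like cells of the L0 and L20 milk held 830 and 10 UMIs of it. In CPM the L20 milk lay below L0 replicate 1 and above the other glands, so only the L0 milk exceeded every gland for IER2. Within macrophage-like barcodes 8 members were called higher (4.08 to 7.05), where 44.1% of genes were called and 27.9% higher, and within T and NK-like barcodes 6 were called higher (4.20 to 7.62), where 45.7% were called and 28.7% higher. JUNB is left out of these counts and ranges, as it passed the filter on low counts through milk, with 0, 1, 1 and 7 UMIs in the macrophage-like nuclei of the 4 glands and 0 in all 4 for T and NK-like nuclei. IER2 in macrophage-like, and ATF3, FOSB and IER2 in T and NK-like barcodes did not pass that filter. Without the filter IER2 was not called in macrophage-like (2.74, adjusted p = 0.206) or in T and NK-like barcodes (1.70, adjusted p = 0.458). In the 4 other settings that gave a value in T and NK-like barcodes, ATF3 (2.16 to 2.62) and FOSB (2.89 to 3.45) were higher. FOSB had 0, 0, 0 and 9 UMIs in those nuclei of the 4 glands. With total UMIs the ranges were 1.95 to 4.97 in luminal-like, 2.32 to 5.20 in macrophage-like and 2.61 to 6.23 in T and NK-like barcodes. T and NK-like nuclei numbered 108 and 99 in the glands of L0 and 20 and 300 in those of L20. The 20 nuclei of L20 replicate 1 held 14518 UMIs, so single UMIs weigh on that sum.

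**Figure D5:**
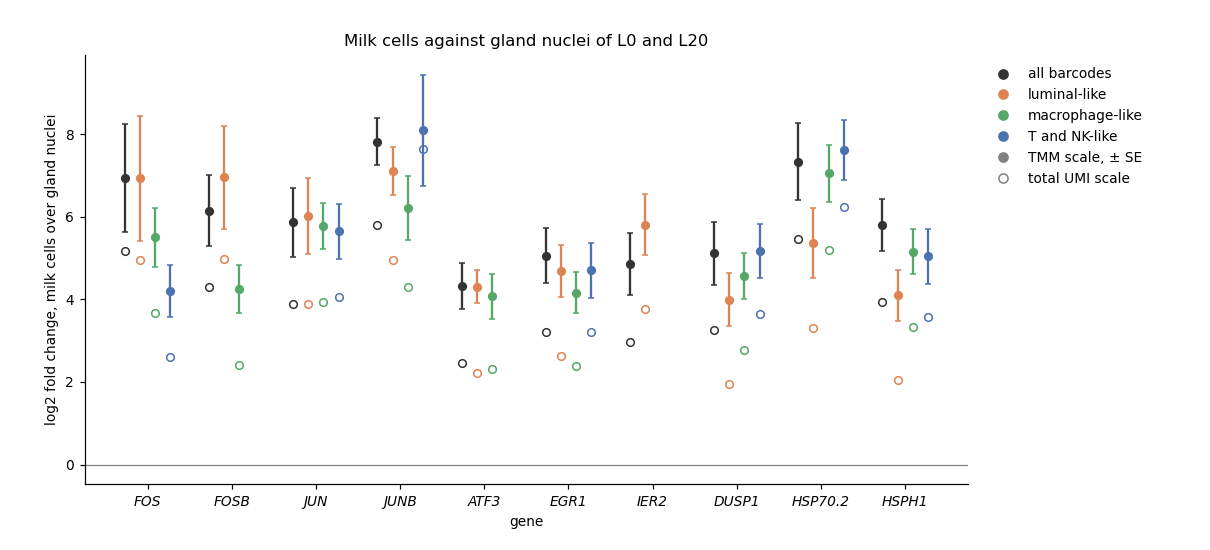
Log2 fold change of milk cells over gland nuclei of L0 and L20 for each member, over all barcodes and within 3 classes, with filled points and bars for the TMM scale ± SE and open points for total UMIs. All points lie above 0, the open points are lower than the filled ones, and JUNB in T and NK-like barcodes is drawn at its fitted value although those nuclei held 0 UMIs of it.

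Milk cells and gland nuclei differ in more than the source. Nuclei hold no cytoplasm, the tissue was frozen and the milk fresh, the kits differed, and each milk stage had 1 library, so these cannot be told apart. Median mitochondrial UMIs were 1.39% and 1.07% in milk against 0.0366% to 0.506% in glands, and casein UMIs 13.9% and 5.25% against at most 1.06%, and their part in the result was not tested.

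The members differed among the cells of milk, of which 48.7% were granulocyte-like by markers such as CSF3R, S100A8 and MMP8. HSP70.2 stood at 7562 CPM in granulocyte-like, 4203 in macrophage-like, 3845 in T and NK-like and 457 in luminal-like cells of the L0 milk. In the L20 milk it stood at 939.9, 627, 357 and 108 CPM, lower in each of the 4 classes. FOS was lower in the L20 milk in 2 of these classes, at 4434 and 3654 CPM in granulocyte-like, 1679 and 927 in luminal-like, 953 and 1259 in macrophage-like and 387 and 468 in T and NK-like cells.

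DUSP1 stood at 5720.5 and 3751 CPM in granulocyte-like and 758 and 467 in luminal-like cells of the L0 and L20 milk. HSPH1 stood at 1164 and 258 CPM in granulocyte-like and at 125 and 38.6 in luminal-like cells. With 1 library per stage no test of these differences between milks was possible. Of 3155 luminal-like cells of the L0 milk 2312 had at least 2 markers of another class, with a median of 16358 UMIs per cell against 2552 in the L20 milk.

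Most genes of the pathway lists were higher in milk as well. Over all barcodes 46 of 60 genes were called higher and 1 lower, with a median of 3.99 beside -0.47 over all genes on the TMM scale, where 20.9% of all genes were higher and 11.2% lower, led by DUSP2 (10.48), BATF3 (8.31), IER3 (8.27), PPP1R15A (7.37), DNAJB1 (6.76) and HSPA8 (6.52). PPP1R15A ends a stress block of translation, DNAJB1 is a cochaperone of HSP70, and HSPA8 is the constitutive HSP70. In the chaperone list 15 of 18 were called higher, and in luminal-like, macrophage-like and T and NK-like barcodes 16 of 18, 14 of 17 and 13 of 16. In these 3 classes 21.9%, 27.9% and 28.7% of all genes were called higher. The upstream factors, such as SRF and CREB1, had 2 of 8 called higher and 1 lower over all barcodes, and 1 higher and 3 lower within luminal-like barcodes, where 21.9% of all genes were higher and 20.2% lower. With 8 tested, 2 higher is close to the 20.9% of all genes over all barcodes.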

How the data were processed

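Single-nucleus RNA-seq of 10 glands, Visium data of 2 sections and single-cell RNA-seq of 2 milk samples were used. The authors made GEXSCOPE libraries, aligned the reads to Sscrofa11.1, counted UMIs with CeleScope, and deposited the counts per gene and barcode without normalization. For the sections they deposited Space Ranger counts, whose version is not given consistently in the sources used here (Space Ranger 1.2.0 and Seurat 4.3.0 in the submitters' processing notes). The annotation release and a step for free RNA or doublets are not given in the sources used here.

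The members, gene lists and tests were chosen with earlier results of these data known. Barcodes with under 300 genes or over 25% of mitochondrial UMIs were left out, and no doublet caller was run. A barcode was called like a class where at least 2 of its markers had a UMI and no other class had as many. UMIs were summed per gland and class (at least 20 nuclei) and tested with edgeR 4.0.16 (quasi-likelihood, TMM, its filter on low counts). All genes were tested, with Benjamini-Hochberg adjustment, and calls needed an adjusted p under 0.05 and an absolute log2 fold change over 1. Stages were compared in 1 fit of 10 glands, classes and class ratios with the sow as a block, and milk with the glands of L0 and L20. The study's methods call the samples of a stage independent biological replicates. Intervals and floors cover counting error only.

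All 10 members are named. From the pathway lists, called genes are named, at most the 6 with the largest fold change. Genes most like a member are the leading ones by Pearson's r. Motifs were searched on both strands, except TATAAA, which was searched on the strand of the gene only. Pearson's r was tested with 100000 permutations. Alternatives were DESeq2 1.42.0, total UMIs, no filter, stricter barcodes and gates, barcodes with markers of a second class left out, other samples in the fit, blocks, other thinning and each gland left out in turn. The test of the class ratio and the fits without shared barcodes were added after seeing the data. Scripts were tested on simulated data. R 4.3.3, Python 3.11.15, numpy 2.4.6, scipy 1.17.1, pandas 2.3.3 and matplotlib 3.10.9 were used.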

Additional observations from a re-analysis of the deposited data

Results flagged for a closer look

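Of 30 groups of 4 to 10 glands or differences examined, 3 held a gland far from the others, where chance flags about 1 in 20. ATF3 in L20 replicate 1 stood at 86 CPM, against 35.7 to 42.2 in the other 3 lactating glands. HSPH1 in PI2 replicate 2 stood at 84.5 CPM, against 17.4 to 42.1 in the other 5 glands outside lactation. The difference in the share of nuclei with FOSB between nuclei with and without another member was 12.8 percentage points in G90 replicate 1, against 0.202 to 4.91 in the other 9 glands.

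Of 24 ratios of a class to luminal-like nuclei compared between L0 and L20, 6 had both L0 glands on one side of 1 and both L20 glands on the other. How often ratios of other genes do so is not given, so this count is not shown to be particular to the members. The mean log2 ratio at L0 less that at L20 was 4.71 for FOS, 2.40 for ATF3 and 1.76 for EGR1 in endothelial-like nuclei, and the test of these is given with the ratios above, where FOS and ATF3 passed and EGR1 did not. It was 2.84 for FOS and 0.98 for DUSP1 in fibroblast-like nuclei and 1.34 for FOS in myoepithelial-like nuclei. These 3 differences were not tested.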

How the results depend on the processing

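Over the called members and the uncalled ones whose fold changes are discussed, 1276 alternative values were computed. Of these 1197 kept their direction and their side of the threshold, 34 passed it newly, 43 no longer passed and 2 reversed. Members outside this set enter the counts of called members given next. With 2 glands per stage, DESeq2 called 2 and 2 members in the whole gland (L0 against G90 and L20 against L0) and 2 and 3 in luminal-like nuclei, where edgeR called 0. Without a filter on low counts edgeR called 1 in the whole gland (L20 against L0) and 2 and 2 in luminal-like nuclei. Leaving out 1 gland gave 0 to 1 in luminal-like nuclei (L20 against L0), where the lone gland is taken to vary like the others. Between classes, B and plasma-like nuclei had 2 members called in place of 4 with total UMIs and without the sow block. Macrophage-like nuclei had 0 in place of 1 without nuclei with markers of a second class, and 0 to 1 when 1 gland was left out. Mural-like nuclei had 1 in place of 0 with at least 3 markers and without nuclei with markers of a second class. For the ratio of endothelial-like to luminal-like nuclei, leaving out 1 gland gave 0 to 2 members from G90 to L0, 1 to 6 from L0 to L20 (1 without L0 replicate 1) and 0 to 1 from L20 to PI2. The cause of these changes was not tested. The share of nuclei with IER2 differed by -0.00589 points within luminal-like nuclei and by -0.0195 points after thinning to 500 UMIs. The 356 alternative values of milk against gland kept their calls. Milk against gland in T and NK-like barcodes had no value with the 3-marker gate, stricter barcodes or without nuclei with markers of a second class. At least 1 library then held fewer than 20 of these barcodes.

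With the replicate number as a block 0 of 10 members were called in each of the 10 stage comparisons. The deviations of glands of the same number had no common direction (r from -0.480 to 0.365 over 10 pairs of stages, above 0.1 in 2). As each stage gives a single difference between its glands, this cannot tell whether glands of the same number were handled together. Over all genes edgeR called 0 in the 5 whole-gland comparisons and DESeq2 397, 1157, 25, 19 and 118. In luminal-like nuclei edgeR called 1, 0, 0, 0 and 2 and DESeq2 860, 1022, 8, 43 and 375. Without a filter, or with only the glands of the 2 stages, edgeR called 33 or 407 (L0 against G90) and 269 or 0 (L20 against L0) in the whole gland, and 308 or 982 and 428 or 2 in luminal-like nuclei. With total UMIs it called 12323 in place of 6834 in milk against gland, and the called genes higher in B and plasma-like nuclei were 81.7% in place of 56.0%, and in fibroblast-like nuclei 65.4% in place of 75.7%. From L0 to L20 the ratio of endothelial-like to luminal-like nuclei was called for 299 genes, for 457 without a filter, for 166 without nuclei with markers of a second class and for 17 without L0 replicate 1.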
